A study of Mus musculus with 6 samples.

Results

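The SNARE, synaptotagmin, exocyst and annexin genes were examined in alveolar type II cells, the epithelial cells of the lung that make and secrete surfactant, from Stat3Δ/Δ mice and their littermate controls. The members were chosen by symbol alone: every probe set that names 1 gene whose symbol starts with Vamp, Stx, Stxbp, Snap, Syt, Sytl, Exoc or Anxa followed by a digit. This gave 167 probe sets of 74 genes, out of 45037 probe sets and 18193 genes measured. A probe set is a group of short oligonucleotides on the array that report 1 transcript or part of it. The symbol rule also takes in Snap91, a clathrin adaptor that is not a SNARE.

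The Stat3Δ/Δ mice carried SP-C-rtTA, (tetO)7CMV-Cre and homozygous floxed Stat3, so that Cre was made in respiratory epithelium under the surfactant protein C promoter when doxycycline was given, and exon 21 of Stat3 was lost there. Source names give the controls as double transgenic for SP-C-rtTA and (tetO)7CMV-Cre, whereas the methods describe non-deleted littermates that carried either SP-C-rtTA or the Cre transgene with floxed Stat3 and the sample descriptions name the triple transgenic for all 6 samples. Doxycycline was given to the dams from embryonic day 0 to postnatal day 25, cells were isolated from sex-matched mice at 8 weeks of age, and RNA was taken 2 h later. Each group had 3 pools, each pool held the cells of 3 mice, and each pool was hybridized to its own MOE430 array, so p-values measure the spread between pools. Of 4 Stat3 probe sets, the brightest had deposited signals of 26284.7, 20127.5 and 25650.1 in Stat3Δ/Δ pools 1 to 3 and 49488.8, 41544.1 and 35080.1 in control pools 1 to 3. Its log2 fold change was -0.71 (standard error, SE, 0.26, limma adjusted p = 0.532), and a second Stat3 probe set gave -0.80 with separate groups. The other two gave -0.046 and 0.60 with overlapping groups.

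A surfactant-storing lamellar body reaches the outside of the cell by regulated exocytosis. Vesicle SNAREs (the VAMPs) pair with target SNAREs (syntaxins and SNAP-23 relatives) to fuse membranes, syntaxin-binding proteins (the Munc18 proteins and others such as tomosyns and amisyn) regulate syntaxins, synaptotagmins and synaptotagmin-like proteins couple fusion to calcium and to Rab GTPases, and the exocyst tethers vesicles to the plasma membrane. Annexins bind phospholipid membranes in the presence of calcium, and several of them have been studied for lamellar body fusion.

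Because the deleted gene encodes a transcription factor, the RefSeq promoter windows of the members (GRCm38.p6, 250 bases before to 50 after the start of the gene) were searched for TTCNNNGAA, the spaced palindrome that STAT dimers bind, which reads the same on both strands. Of the 74 genes, 59 matched a promoter entry, with 78 windows. The motif occurred in 6 of them (7.69%), against 2726 of 32851 windows of all genes (8.3%). The 6 windows belonged to Exoc1, with 2 overlapping windows, and to Exoc4, Stx17, Sytl4 and Vamp8. A match is a run of letters and not evidence of binding. The windows of 3 of these genes are shown with the motif in capitals, and that of Anxa8, the member that both of its probe sets placed lower in Stat3Δ/Δ cells, is shown because it held no match. They lie at chr4:48124669-48124968 on the plus strand (Stx17), chr6:33248878-33249177 on the plus strand (Exoc4), chr6:72390618-72390917 on the minus strand (Vamp8) and chr14:34085729-34086028 on the plus strand (Anxa8).
Stx17: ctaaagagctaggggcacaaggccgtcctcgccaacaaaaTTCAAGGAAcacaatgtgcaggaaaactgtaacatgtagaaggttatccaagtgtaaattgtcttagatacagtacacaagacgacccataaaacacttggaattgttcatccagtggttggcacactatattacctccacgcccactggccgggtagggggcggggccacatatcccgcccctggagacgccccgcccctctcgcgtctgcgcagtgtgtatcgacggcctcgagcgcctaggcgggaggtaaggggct
Exoc4: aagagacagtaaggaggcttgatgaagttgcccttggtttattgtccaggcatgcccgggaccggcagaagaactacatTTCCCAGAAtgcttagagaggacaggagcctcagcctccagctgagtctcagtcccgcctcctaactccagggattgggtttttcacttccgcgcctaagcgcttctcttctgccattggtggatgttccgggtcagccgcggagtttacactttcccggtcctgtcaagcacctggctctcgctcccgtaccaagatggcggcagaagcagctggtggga
Vamp8: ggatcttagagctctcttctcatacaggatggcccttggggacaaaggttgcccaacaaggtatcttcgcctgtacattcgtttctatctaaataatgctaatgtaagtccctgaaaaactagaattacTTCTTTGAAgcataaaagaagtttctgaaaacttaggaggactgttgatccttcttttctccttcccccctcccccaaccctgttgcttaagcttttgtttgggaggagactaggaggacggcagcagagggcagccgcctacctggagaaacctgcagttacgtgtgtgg
Anxa8: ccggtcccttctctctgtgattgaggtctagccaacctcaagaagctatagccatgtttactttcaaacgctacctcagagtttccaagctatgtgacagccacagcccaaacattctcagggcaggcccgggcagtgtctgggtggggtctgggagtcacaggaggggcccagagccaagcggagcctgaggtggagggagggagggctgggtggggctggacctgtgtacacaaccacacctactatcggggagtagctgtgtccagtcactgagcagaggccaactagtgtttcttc

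The deposited values are MAS5 signals whose trimmed mean was 1500 on every array. Median signals were 337.8 to 381.3 on the Stat3Δ/Δ arrays and 282.8 to 360.7 on the control arrays, and precision is limited by having 3 arrays a group. Tests used log2(signal + 69.9) after quantile normalization, a scale that understates the change of dim genes. Fold changes are log2 differences of Stat3Δ/Δ minus control on that scale unless signals are named. As a gauge of RNA integrity, signal at the 3' end over that at the 5' end was, on the log2 scale, 0.34 to 0.42 for Actb on the Stat3Δ/Δ arrays and 0.47 to 0.81 on the control arrays. For Gapdh it was -0.49 to -0.30 and -0.24 to 0.27. The groups did not overlap in either ratio, and the part of RNA integrity in the differences below was not tested. The titles of Stat3Δ/Δ pool 1, Stat3Δ/Δ pool 2 and control pool 3 start with the same number, of unstated meaning, and differences within these 3 arrays are called within-number values below.

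No member passed the full rule of p at most 0.05, false discovery rate (FDR) at most 10% and fold at least 1.5 in the limma fit, and the lowest adjusted p of a member was 0.487. By the methods' t-test 0 passed as well, and 12 member probe sets had an unadjusted limma p of at most 0.05. Over all probe sets 1 passed, 0.00222% of those tested. Without the FDR, 12 member probe sets of 10 genes were called. Transcripts of Snap23, Snap25, Snap29, Stx6, Vamp3 and Exoc5 were higher in Stat3Δ/Δ cells by 1 or 2 probe sets each, and those of Anxa8, Syt5, Syt6 and Syt11 were lower. Of these 10 genes 2, Anxa8 and Stx6, had more than 1 called probe set. The 7 probe sets called higher were 4.19% of the members, against 4.14% of all probe sets, and the 5 called lower were 2.99%, against 4.22%. The member shares were thus near or below the background. All 3 Stat3Δ/Δ arrays lay above all control arrays in 11 member probe sets (6.59%, against 5.99% of all) and below them in 10 (5.99%, against 7.66%). The count called higher was 0 without control pool 1, 3 without Stat3Δ/Δ pool 1 or pool 2, and 4 without control pool 2. Over all probe sets the count called higher also fell, from 1866 to 1307, 1233, 1484 and 1467 in these runs. Control pool 1 was the lowest control in 6 of the 7 probe sets called higher, a share that was not counted over all probe sets. That pool also had the highest 3' to 5' signal ratios, whose part in these calls was not tested. The count called lower was 3 without Stat3Δ/Δ pool 2 and 8 without Stat3Δ/Δ pool 3 or control pool 3. Over all probe sets it moved the same way, from 1901 to 1516, 2379 and 2297 in these runs. With the shared title number as a block, 1 of the 12 probe sets, the dimmer one of Anxa8, kept its call.

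**Figure D1:**
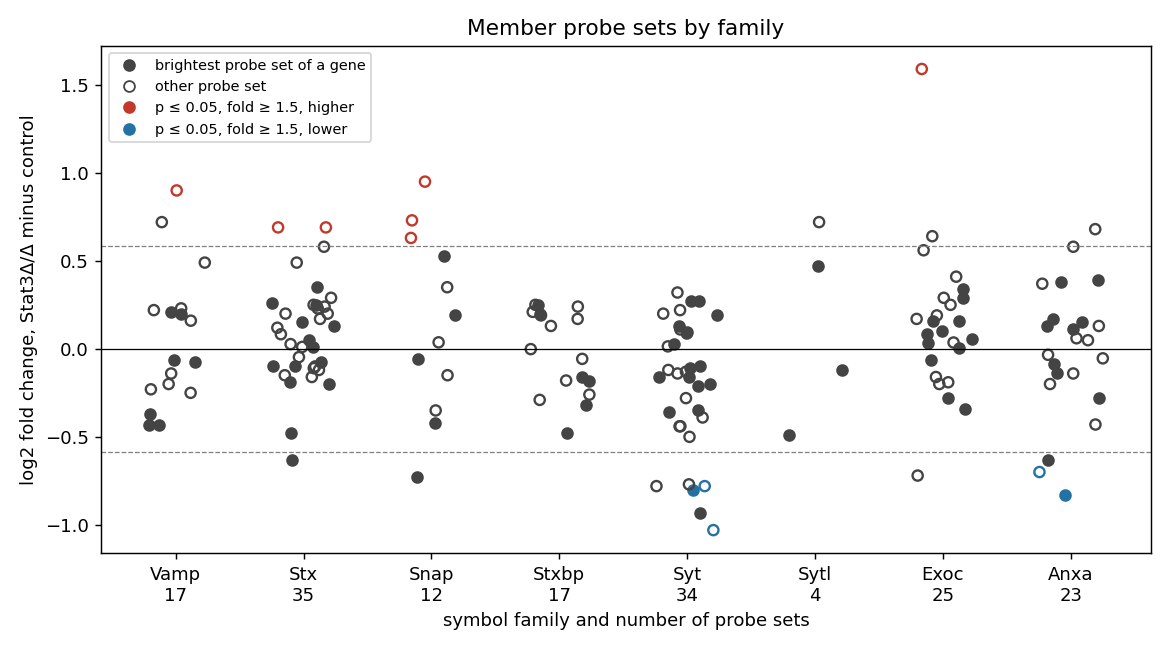
Log2 fold change (Stat3Δ/Δ minus control, vertical axis) of each of the 167 member probe sets, by symbol family with its number of probe sets (horizontal axis; positions within a family are spread for legibility). Filled points are the brightest probe set of a gene, open points the others, red and blue points those called higher and lower without the FDR, and dashed lines mark a fold of 1.5. All 7 red points are open.

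By mean signal, most called probe sets were not the brightest of their gene. When each gene was represented by its brightest probe set, 0 of 74 were called higher (2.15% of all genes) and 2, Anxa8 and Syt5, lower (2.7%, against 5.54%). Among the other 93 member probe sets, 7 were called higher (7.53%, against 5.82% of such probe sets of all genes) and 3 lower (3.23%, against 3.4%). All 7 probe sets called higher were therefore dimmer probe sets of their genes. The median log2 fold change was -0.065 over the brightest probe sets of the members and 0.083 over the others. Over all genes these medians were -0.085 and 0.035. Of the 50 member genes with several probe sets, 23 (46.0%) had them on both sides of 0, against 54.2% of 9010 genes, and 14 had all of them above 0 and 13 all below. The brightest probe sets of 35 members lay above 0 and of 39 below. This median depended on the scaling: it was 0.011 with no further normalization and -0.13 with the arrays centred on their medians.

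Snap23, a SNARE of the plasma membrane outside neurons, had 1 called probe set of 3. This one, 1420896_at, had signals of 2592.0, 2288.5 and 1748.6 in Stat3Δ/Δ pools 1 to 3 and 712.6, 908.4 and 1798.4 in control pools 1 to 3. The deposited ranges overlapped by control pool 3, and after normalization that pool lay just below the lowest Stat3Δ/Δ pool. Normalized means were 11.13 ± 0.24 and 10.19 ± 0.56 (SD, n = 3 each), a log2 fold change of 0.95 (SE 0.33, limma adjusted p = 0.532). Against each control pool alone the Stat3Δ/Δ mean was 1.35, 1.17 and 0.30 higher, and the within-number value was 0.44. The brightest probe set of the gene, 1420897_at, gave 0.53 (SE 0.36, limma adjusted p = 0.724), with signals of 3562.4, 3318.1 and 1671.9 against 1317.1, 1749.9 and 2574.6. There Stat3Δ/Δ pool 3 lay within the control range, and the remaining probe set gave 0.037. Leaving out pool 1 or pool 2 of either group ended the call of 1420896_at, and the 6 omissions of 1 array gave 0.74 to 1.27.

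Snap29, a SNARE of endosomal and autophagic membranes, had 3 probe sets, all above 0 at 0.19, 0.63 and 0.35 from the brightest to the dimmest. The called one, 1423354_at, measured 1322.2, 1257.3 and 1573.5 in Stat3Δ/Δ pools and 621.6, 923.5 and 969.4 in control pools, so the groups were separate. It gave 0.63 (SE 0.25, limma adjusted p = 0.566) and 0.42 within-number, and it was not called after any 1 array was left out, with 0.51 to 0.70. Snap25, the neuronal relative, was near the bottom of the array: 1416828_at read 65.4, 32.2 and 105.1 against 6.3, 7.3 and 10.1, at the 5.0th percentile of all probe sets. Its log2 fold change was 0.73 (SE 0.27, limma adjusted p = 0.542), it was not called without Stat3Δ/Δ pool 3 or control pool 1 or 2 (0.54 to 0.90) or with the median signal as the constant (0.21). With no constant it was 2.81 and called, and the other Snap25 probe set gave -0.058. Snap47 stood on the other side, with 7424.1, 9144.6 and 16679.3 against 20741.5, 16498.6 and 15794.3 in its brightest probe set. That difference of -0.73 (SE 0.33, limma adjusted p = 0.601) was not called, the deposited ranges overlapped by Stat3Δ/Δ pool 3, and the second probe set gave -0.15.

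Syntaxin 6, encoded by Stx6 and found on the trans-Golgi network and endosomes, had 6 probe sets, of which 2 were called. These were 1431646_a_at, with 1178.7, 1012.3 and 1557.2 against 487.7, 787.4 and 881.4, and 1440585_at, with 358.6, 364.9 and 226.9 against 125.6, 117.4 and 199.0. Each gave 0.69, with SE 0.29 and 0.26 and limma adjusted p = 0.578 and 0.551, and within-number values of 0.33 and 0.64. Both had separate groups, and each lost its call in 4 of the 6 omissions of an array, with ranges of 0.50 to 0.83 and 0.58 to 0.84. Both lost it without pool 1 of either group or control pool 2, the first also without Stat3Δ/Δ pool 3 and the second without Stat3Δ/Δ pool 2. The brightest Stx6 probe set measured 5555.3, 10048.8 and 9586.3 against 8118.8, 10200.6 and 8201.4 and gave -0.099. The remaining 3 gave 0.17, 0.20 and 0.49 with overlapping groups.

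**Figure D2:**
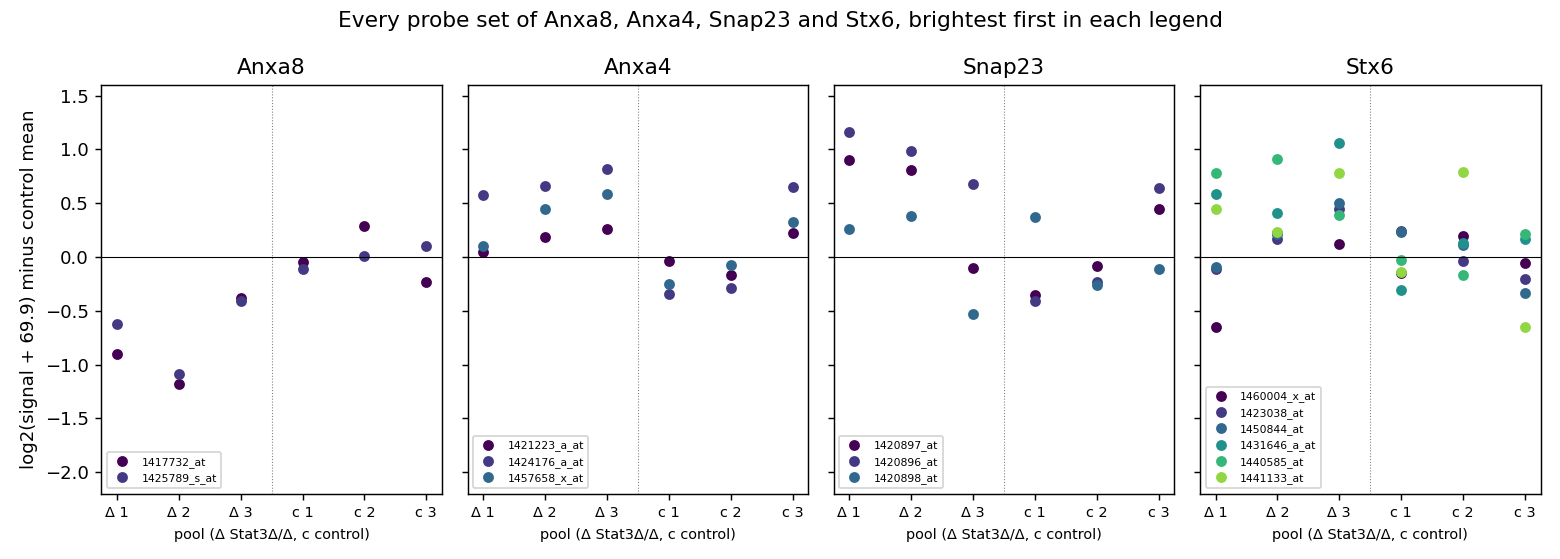
Log2(signal + 69.9) minus the control mean (vertical axis) for every probe set of Anxa8, Anxa4, Snap23 and Stx6 on each array (horizontal axis; Δ 1 to 3 are Stat3Δ/Δ pools, c 1 to 3 control pools), each colour being 1 probe set. Both Anxa8 probe sets lie below 0 on all Stat3Δ/Δ arrays, whereas those of Stx6 and Snap23 diverge from each other.

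Stx17, the autophagosomal syntaxin, had separate groups after normalization in 2 of its 4 probe sets, with 0.26 and 0.29, while the others gave -0.15 and -0.16. Its brightest probe set had 2386.1, 2119.6 and 2178.7 against 1568.3, 1918.8 and 1973.5, and its promoter window is shown above. None of the 4 was called. Of the plasma membrane syntaxins, the brightest probe sets of Stx2, Stx3, Stx4a and Stx11 gave -0.20, 0.052, 0.15 and 0.011. Stx7, an endosomal syntaxin, gave 0.35, with 8583.3, 9437.5 and 6323.5 against 6157.7, 6080.0 and 6933.0, where Stat3Δ/Δ pool 3 fell among the controls. Over the 14 syntaxin genes 7 brightest probe sets lay above 0 and 7 below, from -0.63 (Stx1a) to 0.35. The dimmer Stx1a probe set gave 0.24.

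Among the vesicle SNAREs, only Vamp3 had a called probe set. Cellubrevin, its product, serves recycling endosomes. Probe set 1421102_a_at read 1642.2, 1931.9 and 1679.9 in Stat3Δ/Δ pools and 409.9, 1083.7 and 1394.6 in control pools, with control values that spread more (SD 0.71 against 0.13 on the normalized log2 scale). Its log2 fold change was 0.90 (SE 0.37, limma adjusted p = 0.573) and 0.36 within-number, and it kept its call in 2 of 6 omissions, losing it without any Stat3Δ/Δ pool or control pool 1, with 0.50 to 1.17. The brightest Vamp3 probe set measured 8352.9, 9388.8 and 8528.6 against 9967.8, 9861.6 and 8524.7 and gave -0.077, and the other three gave -0.23, -0.20 and -0.14. Vamp8, the endobrevin of regulated secretion in many epithelia, read 33122.7, 32412.3 and 44454.1 against 45336.5, 38478.1 and 36919.3 and gave -0.066. Vamp2 gave -0.43 in its brightest probe set and a within-number value of 0.08. Its Stat3Δ/Δ signals of 1819.5, 1817.4 and 1449.5 overlapped the control signals of 2641.5, 2589.4 and 1731.2. The dimmer Vamp2 probe set gave -0.25, with groups that were separate only after normalization and no call. Vamp4, Vamp5 and Vamp7 gave 0.20, -0.37 and 0.21 in their brightest probe sets, none called. The dimmer Vamp5 probe set gave 0.49 with separate groups and that of Vamp7 0.72 with overlapping groups, neither called.

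The syntaxin-binding proteins of the Stxbp symbols gave no called probe set among 17 of 6 genes. Stxbp2, a Munc18 protein that serves exocytosis in granulocytes and epithelia, gave -0.32, and Stxbp3, also a Munc18 protein, gave 0.20. Stxbp6, a syntaxin-binding protein also named amisyn, gave -0.48 in its brightest probe set, with overlapping deposited signals of 532.8, 467.9 and 397.0 against 431.5, 611.9 and 868.6. The dimmer Stxbp6 probe set gave 0.25.

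Synaptotagmins, calcium sensors of fusion in nerve and endocrine cells, had 3 of their 34 probe sets called lower (8.82%, against 4.22% of all probe sets), and 24 of the 34 had a mean below the median of all probe sets. The only probe set of Syt5 read 591.8, 699.7 and 537.0 in Stat3Δ/Δ pools and 1014.8, 1022.4 and 1090.9 in control pools. Normalized means were 9.34 ± 0.16 and 10.14 ± 0.057 (SD, n = 3 each), giving -0.80 (SE 0.24, limma adjusted p = 0.498) and -0.73 within-number. It kept its call when any 1 array was left out, with -0.89 to -0.75. Syt11, an inhibitory synaptotagmin of vesicle traffic, had 5 probe sets, all below 0 at -0.78 to -0.13. The called one, 1429315_at, measured 234.3, 237.3 and 261.0 against 366.8, 466.0 and 441.1. It gave -0.78 (SE 0.24, limma adjusted p = 0.502), with -0.74 within-number and -0.85 to -0.71 over the omissions, all called, and was -0.46 and not called with the median signal as the constant. A second, 1455176_a_at, had normalized groups that were separate and gave -0.50, while its deposited signals of 344.2, 242.6 and 275.0 overlapped those of 313.6, 359.1 and 515.3. The Syt6 call rested on a dim probe set, 1449767_x_at, at 9.9, 16.8 and 15.7 against 124.3, 109.5 and 51.7, with -1.03 (SE 0.29, limma adjusted p = 0.487). With the median signal as the added constant it was -0.33 and not called, with none it was -2.90 and called, and the other 3 Syt6 probe sets gave -0.35, -0.44 and 0.11.

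Syt7, a lysosomal synaptotagmin also found in type II cells, gave -0.21 in its brightest probe set, with 2646.1, 2998.2 and 2690.9 against 4140.9, 3013.4 and 2700.9. The other Syt7 probe sets gave -0.14, 0.32 and -0.28, and the brightest of Syt1 gave 0.026. The lowest brightest-probe-set value of the family, Syt13 at -0.93, came from 1 array and was picked out after its values were seen. Its probe set 1434470_at read 293.2, 192.6 and 219.8 in Stat3Δ/Δ pools and 311.9, 4040.9 and 22.0 in control pools, and a second read 41.8, 925.4 and 233.1 in control pools. Without control pool 2 the difference of 1434470_at was 0.52, turning the direction. Control pool 2 also had the highest summed signal of 12 neuroendocrine markers, 4545 against 2209 to 3101 on the other 5 arrays, and of 16 lymphocyte markers, 49774 against 10226 to 30858. Among synaptotagmin-like proteins, Sytl1, Sytl2 and Sytl4 gave -0.49, 0.47 and -0.12 in their brightest probe sets. The dimmer Sytl4 probe set gave 0.72, and none of these was called.

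**Figure D3:**
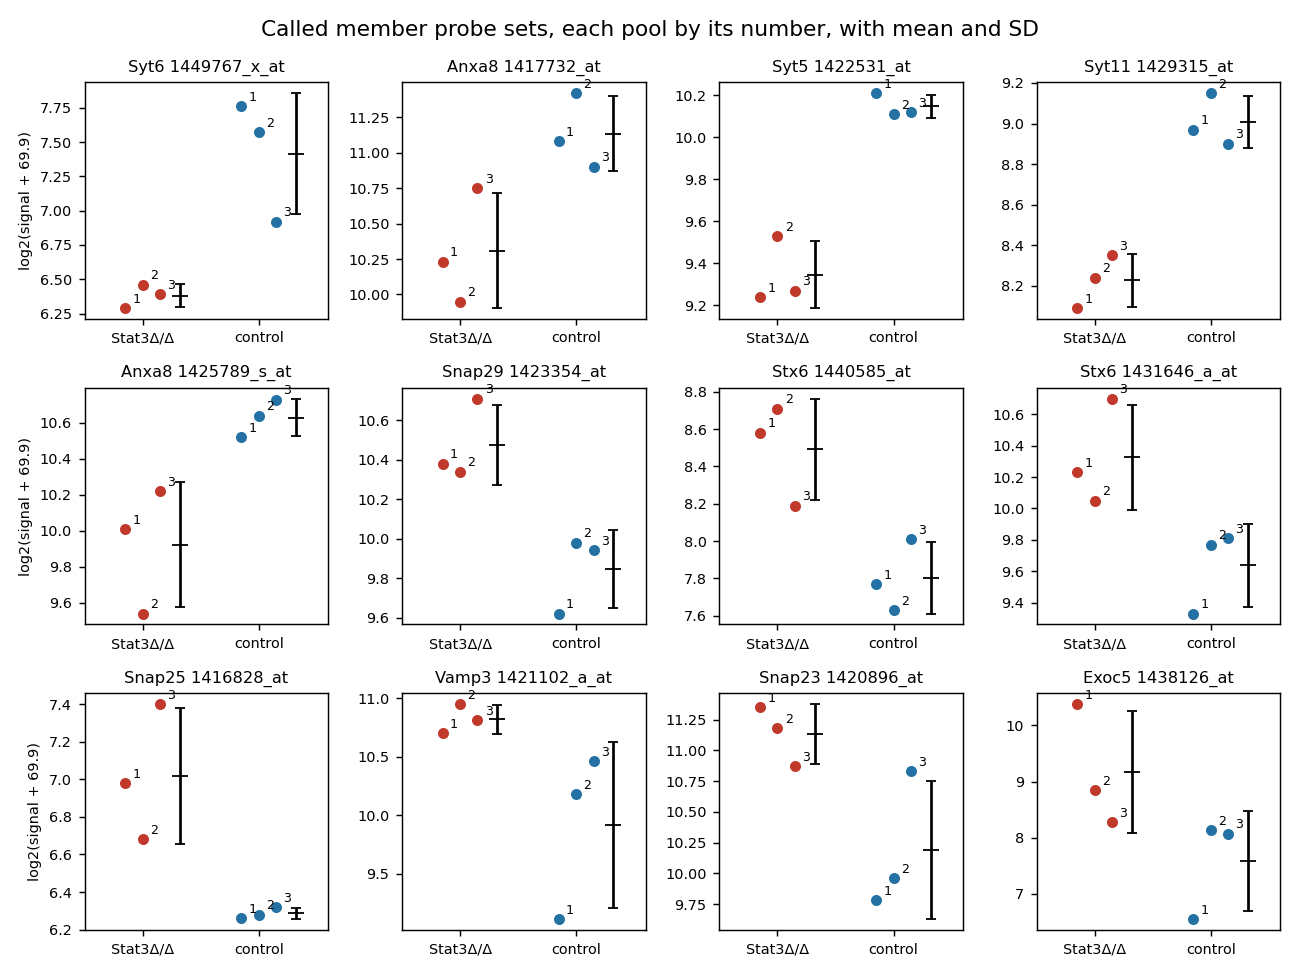
Log2(signal + 69.9) after quantile normalization (vertical axis, a different range in each panel) of the 12 member probe sets called without the FDR in Stat3Δ/Δ pools (red) and control pools (blue), each pool marked by its number, with the mean and SD of each group (n = 3) in black. Panels run from the lowest log2 fold change, -1.03 in Syt6, to the highest, 1.59 in Exoc5.

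The exocyst is an assembly of 8 subunits, each measured here. Their brightest probe sets lay above 0 in 5 of 8, at 0.16 (Exoc1), 0.054 (Exoc2), -0.34 (Exoc3), 0.084 (Exoc4), 0.099 (Exoc5), 0.16 (Exoc6), -0.28 (Exoc7) and -0.064 (Exoc8), and none was called. The single call in the family was the dimmer Exoc5 probe set, 1438126_at, with 1320.0, 410.6 and 244.8 in Stat3Δ/Δ pools and 21.3, 192.0 and 211.7 in control pools. Stat3Δ/Δ pool 1 and control pool 1 lay at the far ends. Its log2 fold change of 1.59 (SE 0.61, limma adjusted p = 0.556) ranged from 0.98 to 2.03 over the omissions, with no call without either of these 2 pools. With no added constant it was 2.30 and not called, and with the median signal as the constant 0.89 and called. The brightest Exoc5 probe set had 5234.9, 3263.0 and 1325.5 against 2136.4, 2869.8 and 2988.1, and its groups overlapped fully.

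Of the 11 annexin genes 1 was called. Anxa8, a calcium-dependent phospholipid-binding protein with anticoagulant activity, was lower by both of its probe sets. Probe set 1417732_at read 1176.7, 944.8 and 1614.6 in Stat3Δ/Δ pools and 1993.4, 2692.7 and 1892.2 in control pools. Normalized means were 10.31 ± 0.41 and 11.13 ± 0.26 (SD, n = 3 each), giving -0.83 (SE 0.30, limma adjusted p = 0.536) and -0.82 within-number. Probe set 1425789_s_at read 1013.8, 706.5 and 1105.5 against 1288.4, 1528.6 and 1692.5, giving -0.70 (SE 0.27, limma adjusted p = 0.553) and -0.96 within-number. The groups were separate in both. Each kept its call in 3 of 6 omissions, with ranges of -1.05 to -0.65 and -0.85 to -0.51, and both lost it without Stat3Δ/Δ pool 2 or control pool 2, the first also without Stat3Δ/Δ pool 1 and the second without control pool 3.

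Anxa4, an annexin of apical epithelial membranes, was not called by any of its 3 probe sets. The brightest, 1421223_a_at, measured 30387.5, 34739.9 and 41339.7 against 33836.8, 29439.7 and 36892.2 and gave 0.17. The next, 1424176_a_at, measured 14409.4, 15545.4 and 18541.0 against 8260.8, 8319.7 and 15398.1 and gave 0.68 (SE 0.32, limma adjusted p = 0.622). Control pool 3 stood with the Stat3Δ/Δ pools there, and the within-number values of the 3 probe sets were -0.097, -0.027 and -0.06. Anxa1, whose product acts in resolving inflammation through formyl peptide receptors, read 56696.0, 30220.6 and 41371.5 against 40213.5, 44928.9 and 20870.9 in its brightest probe set, for 0.39. The dimmer Anxa1 probe set, at the 19.0th percentile of all probe sets, gave -0.43. Anxa2, the partner of S100a10 and a candidate in lamellar body fusion, gave -0.14, and Anxa3, Anxa5, Anxa6 and Anxa7 gave 0.38, 0.11, -0.28 and 0.13, none called. Anxa7, studied for its membrane fusion activity in type II cells, read 11039.2, 7246.5 and 10204.5 against 10107.2, 8681.5 and 7457.0, and Anxa5 read 33334.1, 36529.1 and 36879.8 against 32801.4, 34847.0 and 38443.6, both with overlapping groups.

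The wider fusion machinery gave no call with the FDR, and its counts without it stand against 2.15% of all genes called higher and 5.54% lower by their brightest probe sets. Of 55 further SNARE and fusion genes, 0 were called higher and 1 (1.82%) lower, with a median of -0.11. That gene, Unc13d, a priming factor for granule secretion, measured 1487.6, 1270.1 and 1904.4 against 3679.9, 2753.2 and 2141.8, for -0.85 (SE 0.31, limma adjusted p = 0.539). Nsf, the ATPase that separates SNARE complexes, gave 0.28 with separate groups and no call. Of 28 Rab, Ral and motor genes, 0 were called higher and 1 (3.57%), Rab3b at -0.67, lower, with a median of -0.088. The secretory GTPases Rab27a and Rab3d gave -0.39 and -0.52 with separate groups and no call. Their relatives Rab27b and Rab3a gave 0.37 and 0.038 with overlapping groups. Of the 28 genes, 4 lay wholly below the controls and 0 wholly above by their brightest probe sets. Over all probe sets, brightest or not, these shares were 7.66% and 5.99%. Brightest probe sets were called lower more often than all probe sets (5.54% against 4.22%), so these shares are not a like comparison. Rab27a read 8289.9, 9676.8 and 9023.6 against 13816.7, 10595.0 and 12130.4. Of 17 annexin partners, S100a4 (1.13) and Fpr2, a receptor for annexin A1 (0.85), were called higher (11.8%) and 0 lower, with a median of 0.055. The median over all genes was -0.085.

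Markers of some other cells moved with the groups. Their counts, by brightest probe sets, stand against 2.15% of all genes called higher and 5.54% called lower. Of all 18193 genes, 10795 lay below 0. Fewer cells of a type cannot be told apart in these pools from less RNA per cell. The summed signals of type I, lymphocyte, endothelial and neuroendocrine markers overlapped between the groups. By stain, the paper reports no difference in purity, with alveolar macrophages as the main residual cell. Of 14 alveolar macrophage markers, 13 lay above 0 and 3 were called higher, and their summed signal was 185271 to 270626 on the Stat3Δ/Δ arrays and 142057 to 156268 on the control arrays. Neutrophil markers summed to 32530 to 38293 and 20519 to 25796, with 4 of 11 called higher and 4 of 11 below 0. The sum rested on S100a8 and S100a9: without them the other 9 markers summed to 9397, 12661 and 21821 in Stat3Δ/Δ pools 1 to 3 and 21878, 12896 and 15934 in control pools 1 to 3, with overlapping groups. Ltf, the neutrophil granule and airway gene of lactoferrin, gave -0.87 and was not called. Ciliated cell markers summed to 27386 to 37128 and 51858 to 72244 (10 of 17 called lower), fibroblast markers to 34037 to 53178 and 69235 to 82917 (7 of 18 called lower and 1, Gpc3 at 0.69, higher) and mesothelial markers to 5625 to 9296 and 14623 to 17371 (6 of 10 lower). Airway secretory markers summed to 418301 to 584313 and 573624 to 687238, ranges that overlapped, with 5 of 13 called lower. The sums of 11 type II cell markers overlapped, at 710985 to 954859 and 864424 to 956775, with 8 of 11 below 0. Of these Abca3, the lipid transporter of lamellar bodies, was called lower with separate groups at -0.73 (SE 0.25, limma adjusted p = 0.526) and -1.02 within-number. Sftpc, the gene of surfactant protein C, read 94430.5, 96380.8 and 129372.1 on the Stat3Δ/Δ arrays, in rising order, and 107379.4 to 125713.8 on the control arrays. The part of these cells in the Snap23, Vamp3, Syt5, Syt11 and Anxa8 differences was not tested.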

How the data were processed

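Per the labels, type II cell RNA of 3 Stat3Δ/Δ and 3 control pools was hybridized to MOE430 arrays, 1 pool each. The deposited signal intensities were made by the authors with MAS5 and scaled per array. They are linear and above 0, and RMA values of the methods were not used here. Groups came from titles. Of 45101 probe sets, 64 Affymetrix controls were left out. Of the 45037 tested, 34945 name 1 gene, 932 several and 9160 none, by GEO's platform annotation.

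Signals were raised by 69.9, their 20th percentile, put on the log2 scale and quantile normalized. limma 3.58.1 (R 4.3.3) was fitted with a group term and empirical Bayes, with Benjamini-Hochberg adjustment over the whole array. Calls used p at most 0.05, fold at least 1.5 and, in the full rule, an FDR of at most 10%. The methods waived the FDR only for mRNAs changed in several probe sets, whereas the rule without it was applied here to every probe set, which is wider. A gene was represented by its brightest probe set. The fit was checked on simulated data. Pool numbers of the titles were checked as pairs: same-numbered samples had correlations of -0.0838, -0.00881 and -0.235 between their deviations from the group means, so pools were not paired.

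The symbol rule for members used no values. It and the gene lists were set with earlier results of these data known. Named members, 39 in all, were those on the study's list of changed mRNAs, those called, those known from lamellar body or granule secretion, and those with separate groups in several probe sets. Alternatives changed the constant, normalization, filter, variance model, test, block, fold, probe set rule and arrays. Tables and plots used Python 3.11.15, pandas 2.3.3, numpy 2.4.6 and matplotlib 3.10.9.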

Additional observations from a re-analysis of the deposited data

How the results depend on the processing

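No alternative reversed a called member, and 49 of 89 uncalled named probe sets changed sign in at least 1. Probe sets called higher with the FDR (main 1) were 0 with no constant and 8 with the median signal as the constant. They were 2 with median centring, 12 with a filter on signal above the median, 10 with an intensity trend and 0 by ordinary t-test. Those called lower (main 0) were 3, 4 and 3 with the median constant, the filter and the trend. None passed higher with the replicate block, the title-number block or only the arrays sharing that number. Without the FDR, all probe sets called higher and lower were 1011 and 813 with the median constant. The ordinary t-test gave 1000 and 1216, a fold of 2 gave 861 and 684, and the filter gave 1087 lower. Members called higher were 4 with no constant, 4 with the median constant, 3 with centring and 3 by the ordinary t-test. They were 4 with the replicate block, 1 with the title-number block and 1 at a fold of 2. Members called lower were 3 with the median constant, 3 with the replicate block and 1 at a fold of 2. Without normalization 5 members lay wholly below, and with the filter 12 genes had probe sets on both sides. The pool numbers share only a number, and the replicate block kept 6 of the 12 calls.

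The member median was 0.011 without normalization, -0.13 with centring and 0.053 with the mean of probe sets. It was 0.012 with the title-number block and 0.012 in arrays sharing the number. The block takes its group difference only from the arrays sharing the number, so these settings give the same medians by construction. The median of all genes was -0.18 with centring. The Rab and exocyst partners gave -0.20 with centring and 0.032 with the mean. Annexin partners gave 0.0046 without normalization, -0.14 with centring, 0.10 with the filter, 0.28 with the title-number block, 0.28 in arrays sharing it and 0.15 with the mean. The causes were not tested.

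With each array left out in turn, probe sets called without the FDR numbered 1233 to 2922 higher and 1342 to 2379 lower, and those with it 0 to 1 higher. Members numbered 0 to 9 higher, 3 to 8 lower, 13 to 26 wholly above and 13 to 21 wholly below, the latter on fewer arrays by construction, and 23 to 30 genes had probe sets on both sides. Medians were -0.056 to -0.016 for members, -0.13 to -0.055 for all genes, -0.16 to -0.0085 for SNARE partners, -0.11 to -0.057 for Rab partners and -0.16 to 0.11 for annexin partners.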
